A study of Rattus norvegicus with 11 samples.

Results

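The P2X receptors are the ATP-gated cation channels encoded by P2rx1 to P2rx7, and their mRNA was measured in the trigeminal ganglia (TRG) of rats with an inflamed face. Members were the array probes whose RefSeq accession belongs to one of these 7 genes. Probes for 6 of the 7 genes were found, 8 probes of the 24684 that were tested, and no probe could be matched to P2rx5 by its accession. The 8 probes stand against 13903 genes with a name on the array.

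The animals were male Wistar rats. One whisker pad of each anaesthetised rat (ketamine with xylazine) received 50 µl of complete Freund's adjuvant (CFA), dead mycobacteria in oil at 1 mg/ml, which inflames the skin where it is placed. Both trigeminal ganglia were removed on day 7. The CFA (ipsilateral) group held 6 ganglia, of rats 1, 2, 3, 5, 6 and 8, and the contralateral group held 5, of rats 1, 2, 3, 5 and 6. The contralateral ganglia are therefore from injected and anaesthetised animals too, and no saline-treated or untreated rat was analysed here. Each ganglion was hybridised to 1 single-colour array, so the number of arrays limits the precision. Each p is set against the spread between arrays, which holds the labelling and hybridisation as well as the ganglion. Except where the rat is taken as a block, the sides of a rat were treated as independent.

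P2X channels are trimers that open when extracellular ATP binds, and let in sodium and calcium. In sensory ganglia P2X3, alone or combined with P2X2, carries the ATP response of many nociceptors, whereas P2X4 and P2X7 are best known from macrophages, microglia and satellite glia, and P2X1 from platelets and smooth muscle. ATP set free from damaged or inflamed tissue excites nociceptors through these channels.

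Levels are given as quantile-normalised log2 signal, in which a difference of 1 is a 2-fold change. Levels of different probes cannot be ranked against each other on an array, so every comparison is made within a probe. The probes of P2rx2, P2rx3, P2rx4, P2rx6 and P2rx7 were well above the local background on all 11 arrays, which makes 6 of the 8 member probes, whereas 67.9% of all probes were. Both probes of P2rx1 were dim, and 4 of 6 CFA arrays and 4 of 5 contralateral arrays measured each of them well above background.

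The P2X receptors did not pass the threshold of the study, an unadjusted p of 0.05 or less with an absolute fold change over 2, with 0 of 8 probes against 2.02% of all probes. With the Benjamini-Hochberg adjusted p of limma the count was 0 of 8, as it was over all probes (0%), where the smallest adjusted p was 0.0677. At an unadjusted limma p of 0.05 or less, 1 of the 8 probes was called, against 10.8% of all probes. Values of the groups overlapped at all 8 probes, and 1.2% of all probes had groups without overlap. Of the 8 probes 4 were higher and 4 lower on the CFA side, with a median difference of -0.02, beside a median of -0.04 and 42.5% higher over all probes. The 95% interval of the difference lay within 2-fold in either direction for 6 of the 8 probes, all but those of P2rx1. In these bulk samples fewer cells of a type and less RNA per cell cannot be told apart.

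**Figure D1:**
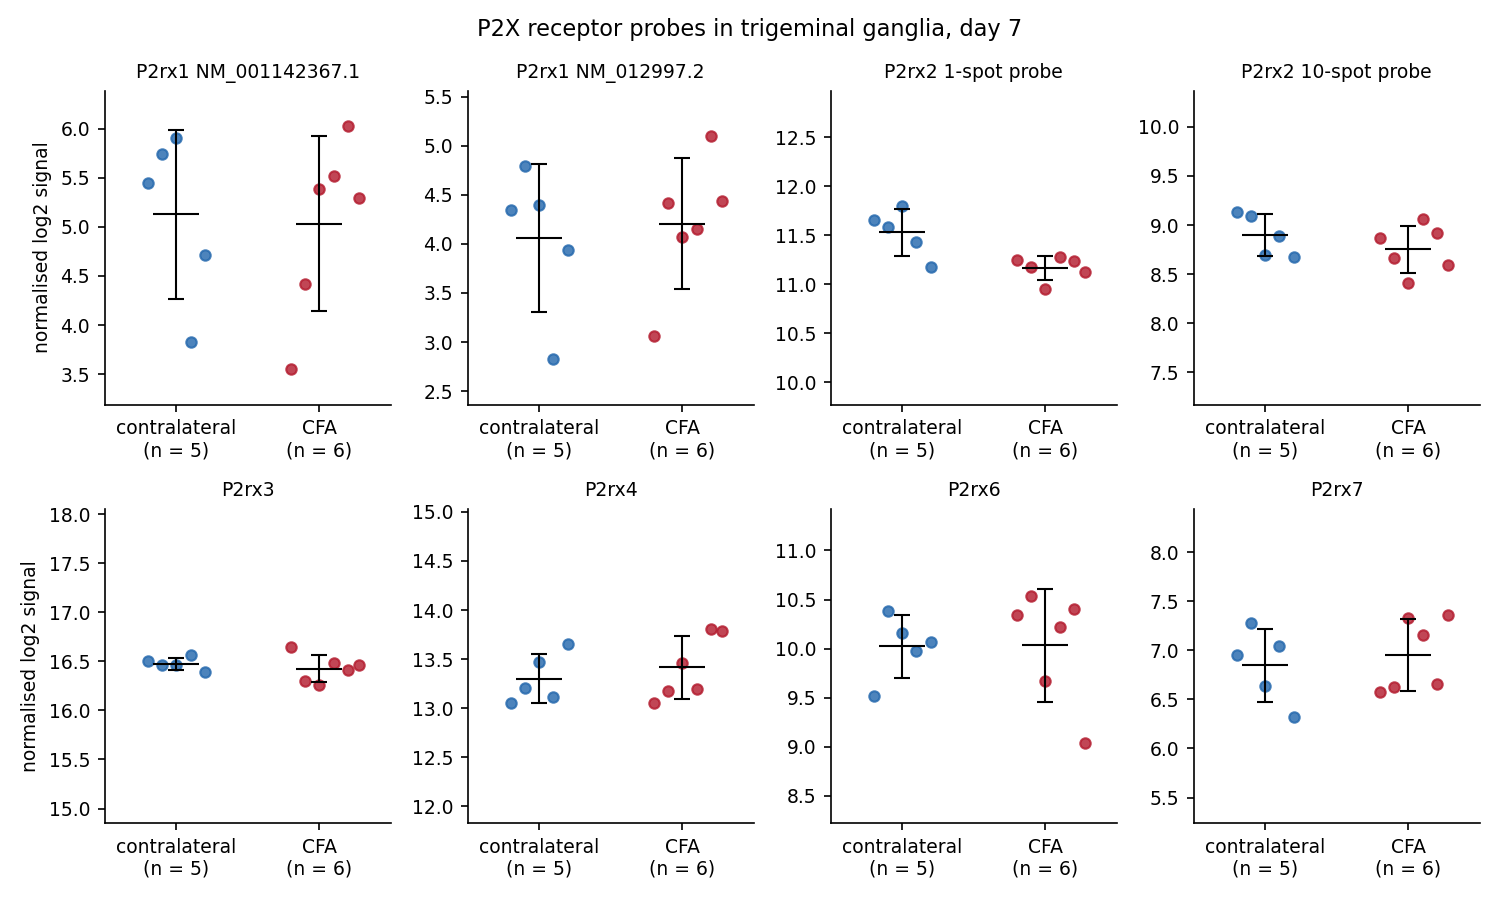
Normalised log2 signal of the 8 P2X receptor probes, 1 point per ganglion, for 5 contralateral and 6 CFA ganglia; the horizontal bar is the mean and the whiskers are 1 SD. All panels span the same log2 range, so that the wide scatter of both P2rx1 probes can be seen beside the narrow scatter of P2rx3, and the groups overlap in every panel.

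The arrays carried 5 different scan time stamps, and arrays with the same stamp were taken to share a slide. The slides, numbered by that stamp, are therefore inferred and not named in the sample labels. Only slide 2 held both groups, with the CFA ganglion of rat 1 and the contralateral ganglia of rats 5 and 6. All other CFA ganglia were on slides 4 and 5, scanned on other days than the contralateral ganglia. The share of spots well above background ranged from 68.9 to 82.3% on CFA arrays and from 71.6 to 82.8% on contralateral arrays. Of 12 sensory neuron markers 0 passed the threshold of the study, with a higher CFA mean for 6 and a lower one for 6. The defining neuronal markers were peripherin (Prph), at 17.41 in both groups, and Scn10a, at 12.26 in CFA and 12.15 in contralateral ganglia. In this list 2 genes, picked after their values had been seen, had an unadjusted p under 0.05, the non-peptidergic receptor Mrgprd at -0.33 (exact permutation p = 0.0130, limma adjusted p = 0.366) and the CGRP gene Calca at 0.26 (exact permutation p = 0.0346, limma adjusted p = 0.446). Of all probes 10.8% had an unadjusted limma p of 0.05 or less. Mrgprd was dim, with means of 4.15 in CFA and 4.48 in contralateral ganglia, and was well above background on only 4 of 6 CFA arrays. Of 4 satellite glia markers 0 passed, with Fabp7 at 0.26, Gja1 at -0.03, Cdh19 at 1.49 and Kcnj10, which no CFA array measured well above background. Of 9 macrophage markers 0 passed, 3 higher and 6 lower, with Aif1 at -0.13, Cx3cr1 at -0.33 and C1qb at 0.51. The summed signal of the 6 anterior pituitary genes spread most, from 12.04 to 18.23 on CFA and from 11.47 to 16.71 on contralateral arrays.

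P2rx3, the subunit that marks nociceptors responding to ATP, differed between the sides by less than the spread between ganglia, with the narrowest interval of the 8 probes. Its probe (NM_031075.1) read 16.50, 16.46, 16.46, 16.56 and 16.39 in the contralateral ganglia of rats 1, 2, 3, 5 and 6. In the 6 CFA ganglia it ranged from 16.26 to 16.64 with a median of 16.44. The CFA values spread to both sides of the contralateral ones, with rat 1 highest and rat 3 lowest. The means were 16.43 ± 0.14 (SD, n = 6) and 16.47 ± 0.06 (SD, n = 5), and the difference was -0.05 (SE 0.09). Its 95% interval reached from -0.24 to 0.14, with a limma p of 0.580 (adjusted p = 0.825) and an exact permutation p of 0.506. Within rats the CFA side was lower in 3 of 5. No spot of the probe was saturated. The difference was 0.17 within slide 2, against the direction over all arrays. The summed signal of the 12 sensory neuron markers was 20.02 to 20.11 on CFA and 20.03 to 20.10 on contralateral arrays. It adds linear signals, so the brightest markers, such as Nefh at 17.72 in CFA ganglia, set most of it, and dimmer ones such as Scn10a add little.

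P2rx2, the partner of P2X3 in heteromeric channels, was read by 2 probes, both for NM_053656, and they differed in the size of the difference. The probe with a single spot was lower on the CFA side. It read 11.66, 11.59, 11.80, 11.43 and 11.18 in the contralateral ganglia of rats 1, 2, 3, 5 and 6, and from 10.95 to 11.28 in CFA ganglia, with a median of 11.21. The contralateral ganglion of rat 6 lay within the CFA range, and the other 4 contralateral ganglia lay above all CFA ganglia. The means of 11.17 ± 0.12 (SD, n = 6) and 11.53 ± 0.24 (SD, n = 5) differed by -0.36 (SE 0.12, 95% interval -0.62 to -0.10), which is 1.28-fold lower. The limma p was 0.0103 and the exact permutation p was 0.0216, where 0.00216 is the smallest that 462 splits of the arrays can give. The limma adjusted p was 0.368, so the difference was not called over all probes.

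The CFA side of this probe was lower in 4 of 5 rats, by -0.41 in rat 1, -0.41 in rat 2, -0.85 in rat 3 and -0.15 in rat 5, and rat 6 differed by 0.06. With the rat as a block the difference was -0.35 (SE 0.15) and the limma p was 0.0591. Leaving out any 1 array gave -0.45 to -0.29. The slide moved with the group, and apart from slide 2 they cannot be told apart. Within slide 2 the CFA ganglion of rat 1 read 11.25 and the contralateral ganglia of rats 5 and 6 averaged 11.30, a difference of -0.05. With the slide as a block the limma adjusted p was 0.983, and with the slide as a random effect the difference was -0.30 (limma adjusted p = 0.953). It was -0.23 after a smooth trend over the rows of each array was removed. With the scan day as a block the difference was -0.28, which sets CFA rat 1 alone against the 5 contralateral ganglia on slides 1 to 3. The contralateral ganglia on slides 1 and 3 read 11.59 to 11.80, whereas the 5 CFA ganglia on slides 4 and 5 read 10.95 to 11.28.

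The second P2rx2 probe had 10 spots over the array, which gives a measure of the error of a single spot. Averaged over its spots, of which 9 were used for CFA rat 2 after an outlier was left out, it read 9.14, 9.09, 8.70, 8.88 and 8.68 in the contralateral ganglia of rats 1, 2, 3, 5 and 6. The CFA ganglia ranged from 8.40 to 9.06 with a median of 8.77. The groups overlapped over most of their range, and the lowest value was that of CFA rat 3. The difference was -0.15 (SE 0.14, 95% interval -0.45 to 0.16), with a limma p of 0.317 (adjusted p = 0.678) and an exact permutation p of 0.290, and the CFA side was lower in 3 of 5 rats. The SD over spots within an array was 0.10 to 0.17, and the SE of the mean of the spots was 0.033 to 0.054. The SD between arrays was 0.24 in CFA and 0.21 in contralateral ganglia, which holds the labelling, hybridisation and slide as well as the ganglion. Read spot by spot, the CFA mean was lower at 9 of the 10 positions, by values from -0.25 to 0.03. These spots share the same ganglia and are not replicates of the condition. The interval of this probe holds the -0.36 of the single-spot probe, and both probes gave a value near 0 within slide 2, -0.05 and 0.09. Pearson's r between both probes over the 11 arrays was 0.59, as a description of arrays that share slides.

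**Figure D2:**
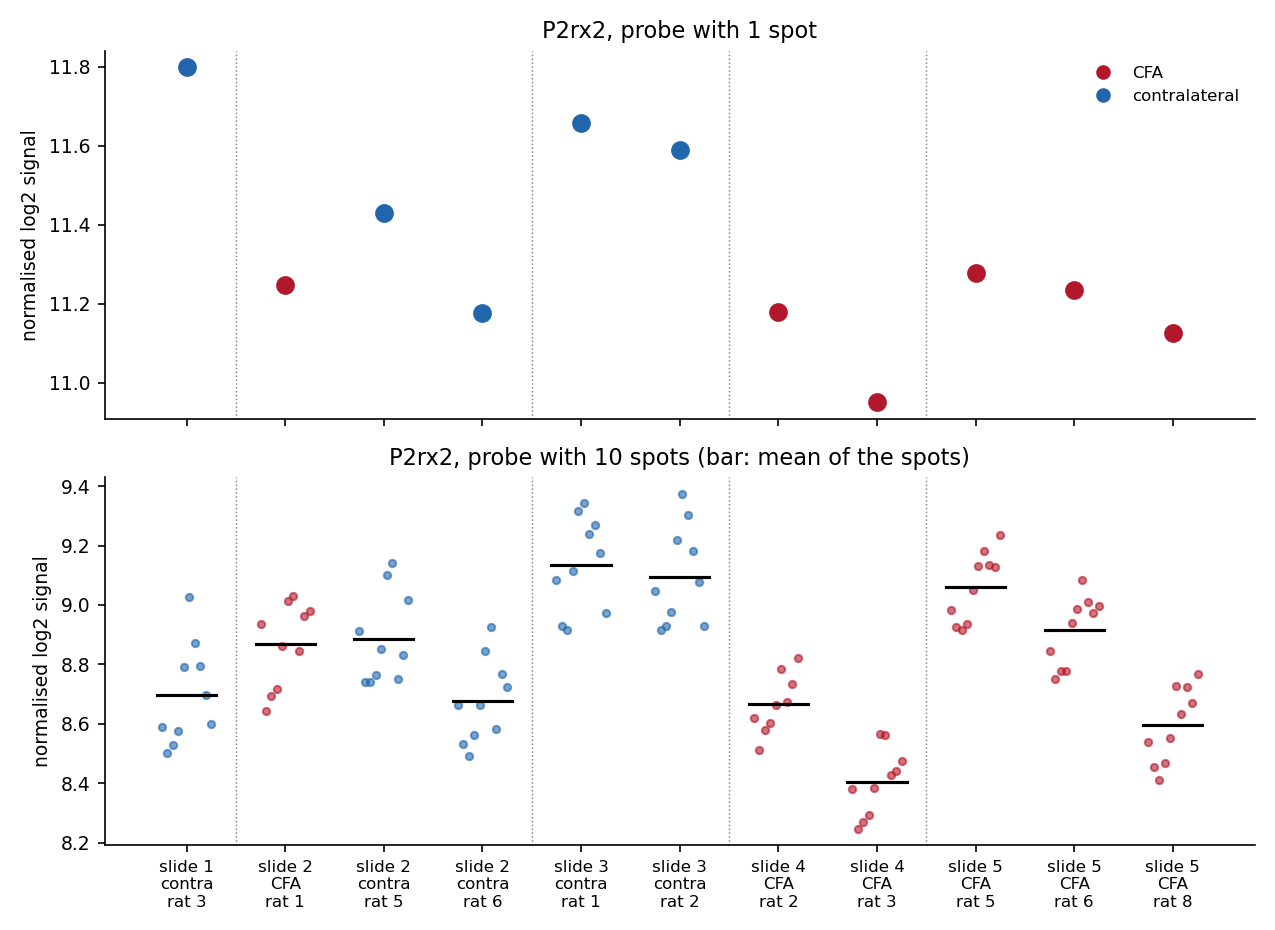
Normalised log2 signal of the P2rx2 probe with 1 spot (top) and of the P2rx2 probe with 10 spots (bottom, small points are spots and bars their mean), by slide, side and rat; dotted lines part the slides. On slide 2, the only one with both sides, CFA rat 1 read 11.25 beside 11.43 and 11.18 at the top, and the highest values are on slides 1 and 3 at the top and on slide 3 at the bottom.

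P2rx4, the channel of macrophages and glia, was close between the sides, and its level went with the rat. The probe (NM_031594.1) read 13.06, 13.20, 13.47, 13.12 and 13.65 in the contralateral ganglia of rats 1, 2, 3, 5 and 6. The CFA ganglia of the same rats read 13.06, 13.18, 13.46, 13.20 and 13.81, and CFA rat 8 read 13.78. Rat 6 was thus highest and rat 1 lowest on both sides. The means were 13.41 ± 0.32 (SD, n = 6) and 13.30 ± 0.25 (SD, n = 5), with a difference of 0.12 (SE 0.17, 95% interval -0.27 to 0.50), a limma p of 0.518 (adjusted p = 0.793) and an exact permutation p of 0.524. With the rat as a block the difference was 0.04 (SE 0.09, limma adjusted p = 0.860). Within slide 2, where rat 1 stands against rats 5 and 6, it was -0.33.

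The differences between the sides of P2rx4 ran from -0.03 to 0.16, with an SD of 0.078 over 5 rats, whereas the SD over the 10 arrays of these rats was 0.263. The ratio of these SDs was 0.298. Among the 16772 probes well above background on all arrays the median ratio was 1.35, and 55 probes (0.328%) had a ratio as low as that of P2rx4 or lower. The other member probes had ratios of 1.23 to 1.81. This likeness of the sides was noticed after the values had been seen, and it was not tested. The summed signal of the neutrophil genes S100a8 and Camp was low in rats 1 and 5 and highest in rat 6 on both sides, but the sides of rat 2 differed. It was 12.02, 14.86, 14.24, 12.22 and 15.03 in contralateral rats 1, 2, 3, 5 and 6, and 11.995, 13.23, 14.90, 11.75 and 15.42 in CFA ganglia of the same rats. That of the platelet markers, in the same order, was 11.98, 12.32, 12.52, 11.68 and 13.18 on the contralateral side. On the CFA side the platelet sum was 11.69, 12.33, 12.34, 11.02 and 12.99. CFA rat 8, with P2rx4 at 13.78, had a neutrophil sum of 14.22 and a platelet sum of 12.02. The sum of the macrophage markers was 16.32, 16.24, 16.53, 16.50 and 16.73 on the contralateral side. In CFA ganglia of the same rats it was 16.35, 16.97, 17.01, 16.39 and 16.53, highest in rat 3 and not in rat 6. The part of any of these sums in the P2rx4 values was not tested.

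P2rx7, the channel through which high ATP triggers interleukin-1β release from macrophages, did not differ detectably, and its values did not follow the rat. The probe (NM_019256.1) read 6.95, 7.27, 6.64, 7.04 and 6.32 in contralateral rats 1, 2, 3, 5 and 6. The CFA ganglia ranged from 6.58 to 7.36 with a median of 6.90. Both groups covered nearly the same range. The difference was 0.10 (SE 0.21, 95% interval -0.36 to 0.57), with a limma p of 0.633 (adjusted p = 0.848) and an exact permutation p of 0.649. The CFA side was higher in 3 rats and lower in 2, by -0.64 to 0.69. P2rx4 and P2rx7 are direct neighbours in the rat genome, with 0 protein-coding genes between them in the RefSeq annotation of GRCr8, and Pearson's r between their probes was -0.07 over the 11 arrays. The summed signal of the 9 macrophage markers, in which C1qb as the brightest weighs most, was 16.35 to 17.01 on CFA and 16.24 to 16.73 on contralateral arrays. The summed signal of the 4 satellite glia markers was 14.81 to 15.41 on CFA and 14.88 to 15.21 on contralateral arrays.

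**Figure D3:**
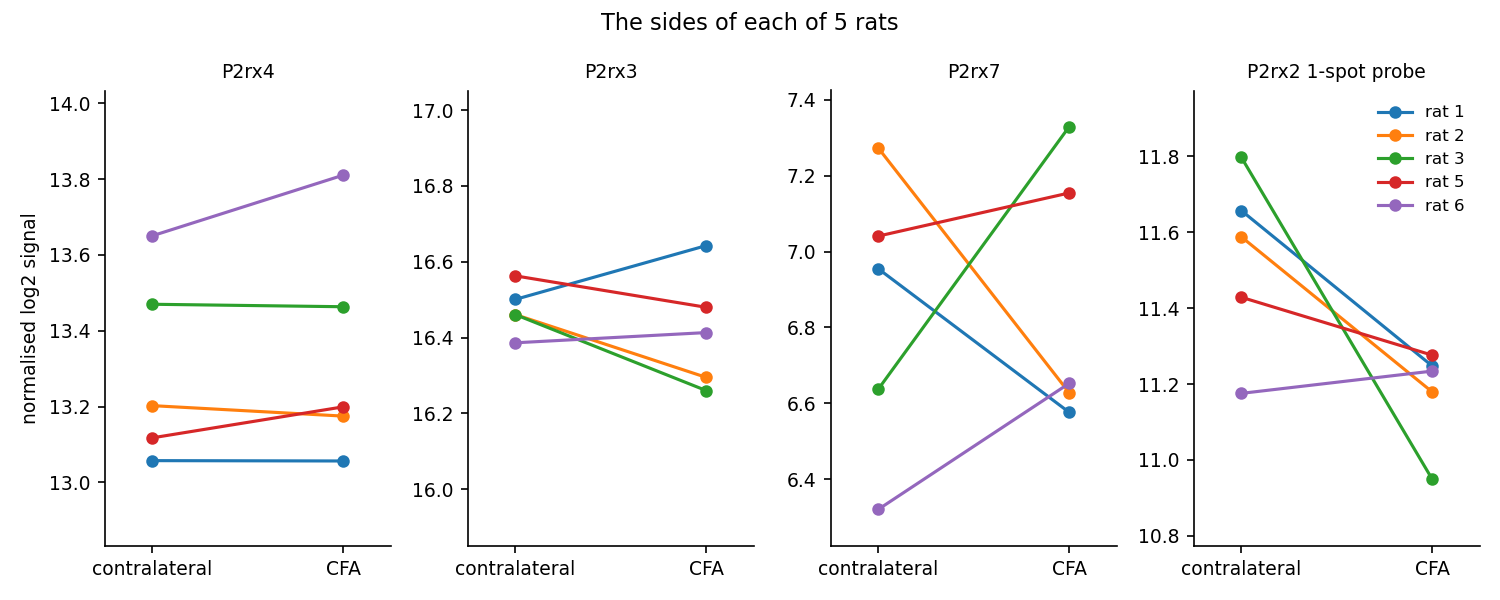
Normalised log2 signal of 4 P2X receptor probes in the contralateral and the CFA ganglion of rats 1, 2, 3, 5 and 6, with a line for each rat and the same log2 range in each panel. The lines of P2rx4 run nearly flat and keep their order apart from rats 2 and 5, those of P2rx7 cross, and those of the single-spot P2rx2 probe fall in 4 of 5 rats.

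P2rx6, a subunit that traffics poorly alone and joins P2X2 or P2X4 in heteromers, had nearly equal means. The probe (NM_012721.2) read 9.52, 10.38, 10.16, 9.98 and 10.06 in contralateral rats 1, 2, 3, 5 and 6. The CFA ganglia ranged from 9.03 in rat 8 to 10.54, with a median of 10.28. CFA rats 3 and 8 lay under at least 4 of the 5 contralateral ganglia, and the other 4 CFA ganglia lay above at least 4 of them. The means of 10.03 ± 0.58 (SD, n = 6) and 10.02 ± 0.32 (SD, n = 5) differed by 0.01 (SE 0.27, 95% interval -0.58 to 0.61), with a limma p of 0.966 (adjusted p = 0.987) and an exact permutation p of 0.952. The CFA side was higher in 4 of 5 rats, by -0.50 to 0.82 in all.

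P2rx1, the ATP receptor of platelets and smooth muscle, was read by 2 dim probes that carry different RefSeq accessions. The probe for NM_001142367.1 read 5.44, 5.75, 5.90, 3.83 and 4.72 in contralateral rats 1, 2, 3, 5 and 6, and from 3.56 to 6.02 in CFA ganglia, with a median of 5.34. The probe for NM_012997.2 read 4.35, 4.80, 4.40, 2.82 and 3.94 in the same contralateral ganglia, and from 3.06 to 5.10 in CFA ganglia, with a median of 4.29. On both probes CFA rat 1 and contralateral rat 5 were the lowest ganglia, and both were on slide 2. The differences were -0.09 (SE 0.49, limma adjusted p = 0.945, exact permutation p = 0.866) and 0.15 (SE 0.39, limma adjusted p = 0.890, exact permutation p = 0.719). Their 95% intervals, -1.17 to 0.98 and -0.72 to 1.02, are wide enough that a change of nearly 2-fold would not have been detectable. Slide and scan day moved the first of these values to -0.72 and -1.57 when taken as a block, and the second to -0.32 and -1.001. Both blocks rest on a single CFA ganglion, that of rat 1, which was not well above background on either probe. The slide sets it against contralateral rats 5 and 6, and the scan day against all 5 contralateral ganglia. Pearson's r between both probes over the 11 arrays was 0.86. The 3 platelet markers and the 3 smooth muscle markers that were measured had 0 genes past the threshold, with summed signals of 11.02 to 12.99 and 12.49 to 13.24 on CFA arrays and of 11.68 to 13.18 and 12.74 to 13.65 on contralateral arrays. P2rx1 lies near P2rx5 in the genome, with 4 protein-coding genes (Camkk1, Ncbp3, Itgae and Haspin) between them in GRCr8.

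**Figure D4:**
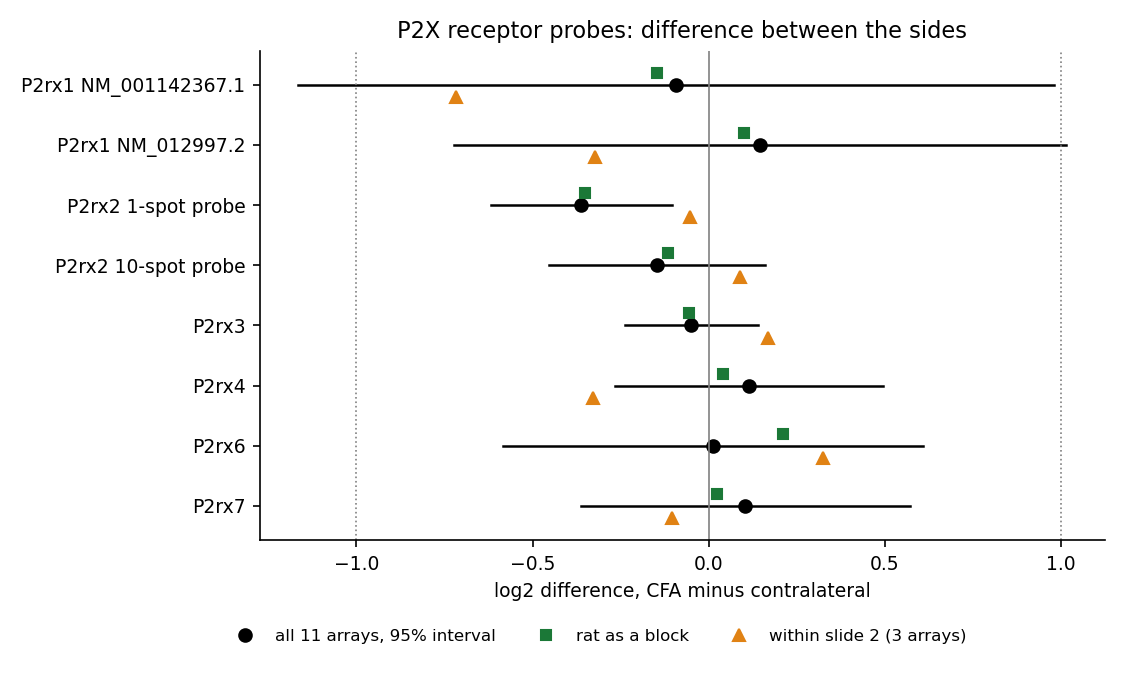
Difference of the 8 P2X receptor probes between CFA and contralateral ganglia on the log2 scale, with its 95% interval over all 11 arrays (circles and lines), with the rat as a block (squares) and within slide 2 (triangles); dotted lines mark a 2-fold change. The interval of the single-spot P2rx2 probe alone leaves out 0, and its value within slide 2 was -0.05.

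Genes whose level ran most like that of each bright member probe were named by Pearson's r over the 11 arrays among 11423 mRNA probes well above background. These are descriptions over arrays that share rats and slides. The single-spot P2rx2 probe ran most like Slc25a46 (0.978), Lrrc73 (0.967) and Ufc1 (0.964), whereas the 10-spot probe ran most like Pcdhb4 (0.969), Mrpl21 (0.951) and Cptp (0.951). P2rx3 ran most like Scamp1 (0.950), Rlbp1 (0.950) and Flvcr2 (0.937). For P2rx4 these were Gng10 (0.915), Eif3h (0.884) and Lcn2 (0.881), the last a protein of neutrophil granules and of inflamed tissue. For P2rx6 they were Cabp1 (0.961), Akap8l (0.949) and Kcnn4 (0.944), and for P2rx7 they were Map2 (0.863), Aff4 (0.860) and Dmd (0.843). No gene stood in the lists of both P2rx2 probes.

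Of 39 measured genes in 6 other lists of extracellular ATP and adenosine signalling, 1 passed the threshold of the study, against 2.02% of all probes, with 0 higher and 1 lower, and 0 at an adjusted p of 0.05. Their median difference was -0.09, with 11 genes higher and 28 lower, beside a median of -0.04 and 42.5% higher over all probes. With the slide as a block the medians of the lists ran from -0.46 (P2Y receptors) to 0.22 (adenosine receptors). The gene that passed was Calhm1, an ATP-releasing channel, among 7 genes of ATP release and vesicular loading. It was not well above background on any CFA array and on 3 of 5 contralateral arrays, so its CFA level is only a bound. At that bound the CFA mean was 3.26, not lower than the contralateral mean of 3.16, so no fold is given. It read 2.89, 2.71, 3.56, 3.93 and 2.70 in contralateral rats 1, 2, 3, 5 and 6, and from 1.07 to 3.41 in CFA ganglia, with a limma p of 0.0117 (adjusted p = 0.388) and an exact permutation p of 0.0303.

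Among the 7 metabotropic P2Y receptors 0 passed. The smallest limma p was that of P2ry14, the receptor of UDP-sugars, at -0.27 (SE 0.11, exact permutation p = 0.0303, limma adjusted p = 0.448). Its difference was -0.46 within slide 2 and -0.30 with the rat as a block. The list of ectonucleotidases, a group that includes the enzymes that break ATP down to adenosine outside the cell, had 12 genes. Of these 0 passed, and Entpd5 had the smallest limma p, at -0.25 (SE 0.11, exact permutation p = 0.0476, limma adjusted p = 0.458). Of 3 adenosine receptors 0 passed, with Adora2b at -0.32 (SE 0.15, exact permutation p = 0.0952, limma adjusted p = 0.480). Adenosine transport and breakdown had 0 of 6 genes past the threshold, with adenosine deaminase (Ada) at -0.19 (SE 0.12, exact permutation p = 0.121, limma adjusted p = 0.541). The axis from P2X7 to the inflammasome had 0 of 4, with Casp1, the protease that matures interleukin-1β, at -0.28 (SE 0.20, exact permutation p = 0.208, limma adjusted p = 0.584).

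**Figure D5:**
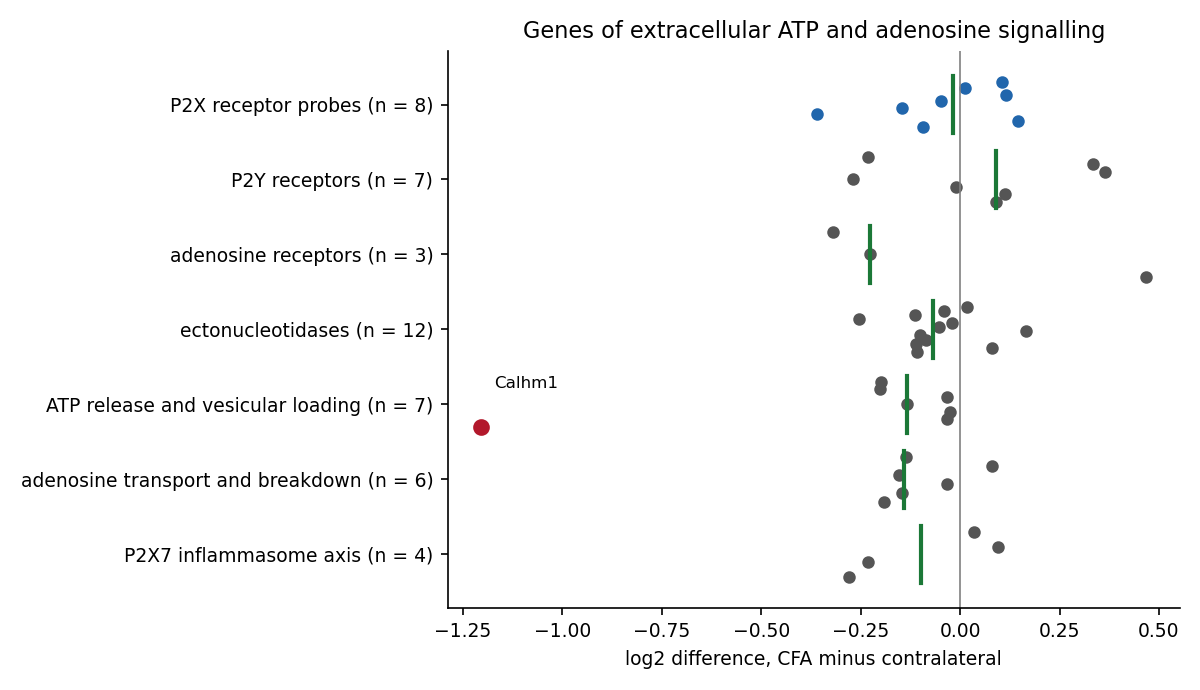
Difference between CFA and contralateral ganglia (log2) of the 8 P2X receptor probes and of 39 genes in 6 lists of ATP and adenosine signalling, 1 point per probe or gene; green bars are the median of each list. Calhm1 (red), drawn at its measured value although not well above background on any CFA array, is the single gene past the threshold of the study, and all others lie within 0.47 of 0.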

How the data were processed

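RNA of 11 trigeminal ganglia was analysed, grouped by the side in the sample labels. Of the 8 rats named in the methods of the paper, 6 are represented, and other ganglia were not used here. The authors deposited scanner intensities for every ganglion, which Agilent Feature Extraction (version 11.0.1.1) had background-subtracted and which were not yet normalised between arrays. The authors also deposited linear intensities per probe after quantile normalisation, with a median of 184.67 in every column. The sources used here do not say how they combined repeated spots.

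Of 43553 spots, 1417 controls were left out. The log2 of the processed signal, with spots marked as outliers set to missing, was quantile normalised over 42136 spots. Spots of a probe were averaged to 24684 probes, 46 of them with a missing value on some array. All probes were tested with limma 3.58.1 in R 4.3.3 (moderated variances, no covariate, 2-sided). The exact permutation test was two-sided over all splits of the 11 arrays. Accessions were named from the RefSeq table of GRCr8, and 14274 of 15321 mRNA probes had a name. The genome build of the array design differs, so no coordinates are given. Genes other than the P2X receptors were represented by their brightest probe. The normexp and uncorrected alternatives used the median spot signal and a normexp offset of 50, because no mean signal is among the columns of the files.

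The members and gene lists were chosen with earlier results of these data known. All probes of the members were named. From each other list the genes past the threshold of the study or, with none, the gene with the smallest p were named, with 3 genes most like each bright member probe. A marker gene is not reported here. Equal values of the rat number field in the labels mark the same animal. The correlation of the deviations of both sides over probes was -0.05, -0.08, -0.03, -0.01 and 0.13 in rats 1, 2, 3, 5 and 6, and 0 of 5 CFA ganglia correlated best with the contralateral ganglion of the same rat. Scripts were checked on simulated data, with tables handled by pandas 2.3.3 in Python 3.11.15.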

Additional observations from a re-analysis of the deposited data

How the results depend on the processing

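No member probe passed the threshold of the study or an adjusted p of 0.05 under any of 14 alternatives with a test or without any 1 of the 11 arrays, where the filter on dim probes kept 6 of the 8 probes and the values within slide 2 had no test. Of 206 member values, 36 changed sign and 169 were counted as unchanged in direction. The value of the single-spot P2rx2 probe within slide 2 also kept its direction, but moved by more than the SD of either group, and was counted apart. The slide as a block gave the same member values as the comparison within slide 2. Likewise the rat as a block gave those found without CFA rat 8. The 206 values are therefore not all separate, and sign changes with the slide are counted in both settings. With the slide as a block, and within slide 2, the values that changed sign were P2rx1 NM_012997.2 at -0.32, the 10-spot P2rx2 probe at 0.088, P2rx3 at 0.17, P2rx4 at -0.33 and P2rx7 at -0.10, and the single-spot P2rx2 probe moved to -0.054. With the scan day as a block P2rx1 NM_012997.2 was at -1.001, P2rx3 at 0.17, P2rx4 at -0.24 and P2rx7 at -0.27, and P2rx1 NM_001142367.1 moved from -0.09 to -1.57 (-0.72 with the slide as a block). Only CFA rat 1 was scanned on the day of the contralateral ganglia. The scan day values therefore set this single CFA ganglion against all contralateral ganglia. With the slide as a random effect P2rx1 NM_012997.2 was at -0.061, P2rx3 at 0.011 and P2rx4 at -0.034. P2rx3 was at 0.0078 with normexp and without background correction and at 0.031 with the row trend removed, which put P2rx1 NM_001142367.1 at 0.021. P2rx7 was at -0.010 with normexp, P2rx1 NM_012997.2 at -0.0029 with a floor on low signals and P2rx6 at -0.0027 with outlier spots kept. The causes were not tested.

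Leaving out 1 array gave -0.42 to 0.20 for P2rx1 NM_001142367.1, -0.16 to 0.38 for P2rx1 NM_012997.2, -0.11 to 0.21 for P2rx6 and -0.027 to 0.21 for P2rx7, and, without a change of sign, -0.21 to -0.077 for the 10-spot P2rx2 probe, -0.092 to -0.016 for P2rx3 and 0.036 to 0.20 for P2rx4. With the rat as a block, which pairs the sides of an animal, the single-spot P2rx2 probe was at -0.35 with a limma p of 0.0591 against 0.0103 without it, the whole array had 370 probes past the threshold of the study, and no call of a member or list gene at that threshold changed.

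Over all probes 498 passed the threshold of the study, 285 higher and 213 lower, which fell to 16 with normexp, 47 without background correction, 143 with a floor, 288 with a filter on dim probes and 233 with the slide as a random effect, and ranged from 330 to 796 when 1 array was left out. Probes with an adjusted p of 0.05 or less numbered 0, but 3 with a floor, 69 with the slide as a block, 35 with the scan day as a block and 0 to 121 when 1 array was left out, the highest without CFA rat 1. Calhm1 was no longer called in the ATP and adenosine lists with the slide as a block or at an adjusted p of 0.05, which left 0 genes. Each P2rx1 probe was dim, and was well above background on only 4 of 6 CFA and 4 of 5 contralateral arrays.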
